A study of Homo sapiens with 6 samples.

Results

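The IL6 family is a group of cytokines that share the receptor subunit gp130, encoded by IL6ST. Its transcripts were followed here in the established human endometrial carcinoma line RL95-2, as 10 genes chosen by symbol: the ligands LIF, IL6, IL11, CLCF1 and CTF1, and the receptor genes IL6ST, LIFR, OSMR, IL6R and IL11RA. All 10 were among the 23228 genes of the count tables. For 3 Control libraries the cells were kept in serum-free RPMI mixed with an equal part of DMEM, and for 3 ADP-CM libraries in serum-free RPMI mixed with an equal part of medium conditioned by mature human visceral adipocytes, each for 24 h. RNA of whole cultures was sequenced, so the values say nothing of the cytokine proteins that the adipocyte medium carries, and the model is 1 cell line. The labels do not say whether the libraries of a group came from separate cultures, so the p-values measure only the spread between these libraries, which may be technical.

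Nearly all family receptors work by bringing gp130 together with a partner chain, which lets the attached JAK kinases phosphorylate STAT3. IL6 and IL11 first bind a receptor of their own, IL6R or IL11RA, that has no signalling part, and the complex then recruits gp130. LIF and cardiotrophin-1, the product of CTF1, join gp130 to LIFR, while oncostatin M (OSM) joins it to OSMR or LIFR. CLCF1 needs CNTFR beside LIFR and gp130. In the uterus LIF is known for its part in embryo implantation, and LIF and LIFR are the pair the study set out to follow in obesity-linked endometrial cancer.

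Gene counts summed to 16262614 to 17096135 reads per Control library and 18103609 to 18363033 reads per ADP-CM library, without overlap. The low-count filter of edgeR was passed by 12663 genes. Of the members 9 passed and IL6 did not. As a check of the cell type, all 8 epithelial markers (EPCAM, CDH1, KRT8, KRT18, KRT19, MUC1, CLDN4 and PAX8) had reads in every library. They summed to 4144 to 4217 CPM (reads scaled by library size after TMM normalization) in Control and 3490 to 3539 CPM in ADP-CM. Of these 8, 5 were lower in ADP-CM and 2 higher (edgeR, limit of 0.01 on the adjusted p-value). Over all tested genes 13.0% were lower and 13.5% higher at that limit. The log2 fold changes were -0.85 for KRT19, -0.42 for CDH1 and 1.27 for MUC1. MUC1 was low, with 12, 21 and 15 reads in Control and 34, 25 and 68 reads in ADP-CM replicates 1, 2 and 3. Of 10 adipocyte markers, ADIPOQ and LEP had 0 reads in all 6 libraries, and 3 others had at most 3 reads in any library. The summed level of the 10 was 35.5 to 38.4 CPM in Control and 33.7 to 34.0 CPM in ADP-CM, mostly PNPLA2, which many cell types express. Of the 2 tested, PNPLA2 did not pass, with means of 30.1 CPM in Control and 28.9 CPM in ADP-CM. LIPE was lower, with means of 5.77 and 3.76 CPM (log2 fold change -0.62). The stromal list summed to 61.7 to 68.6 CPM in Control and 79.1 to 79.6 CPM in ADP-CM, nearly all of it COL1A1, and 2 of its 8 markers were tested, with 1 higher and none lower. The leukocyte list summed to 7.08 to 8.53 and 10.0 to 12.2 CPM, mostly CD68, which was higher and was the only 1 of its 7 markers tested. PTPRC, the defining leukocyte gene, had at most 1 read in any library. The endothelial list overlapped, with 60.9 to 67.1 and 54.6 to 62.2 CPM, nearly all CDH5, and KDR had 0 reads. Of the 5 marker lists the epithelial and adipocyte sums were lower in every ADP-CM library and the stromal and leukocyte sums higher, and their part in the member results was not tested. Among the stromal genes COL1A2, PDGFRA and DCN had at most 2 reads in any library, COL3A1 19 to 47 reads, and VIM 3, 4 and 3 reads in Control and 12, 6 and 14 reads in ADP-CM, without overlap.

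To see which receptor complexes the cells could build, reads were divided by the exon length of each gene and scaled to the same sum in each library (TPM), since levels of different genes can be compared only per length. On this scale IL6ST was the highest member, with 90.9, 94.8 and 92.7 TPM in the Control libraries against 83.4, 83.5 and 85.1 TPM in ADP-CM. OSMR followed with 48.5 to 50.1 TPM in Control and 55.5 to 57.5 TPM in ADP-CM, and IL6R with 16.3 to 17.2 and 16.2 to 17.8 TPM. LIFR was far below, at 1.71 to 1.84 TPM in Control and 2.34 to 2.93 TPM in ADP-CM. IL11RA was the lowest receptor gene among the members, at 0.842 to 0.899 and 1.32 to 1.62 TPM. Neighbours in this order of receptors did not overlap in either group. With the longest transcript of each gene the top 3 kept their order, at 86.3 TPM for IL6ST, 44.5 for OSMR and 14.1 for IL6R in Control. With the median transcript length the order changed, to OSMR at 109.5, IL6R at 37.7 and IL6ST at 37.5 TPM in Control. LIFR was then at 6.71 TPM. The median length is short for LIFR, with 757 bases against 10553 in its longest transcript, while IL6ST has 7093 against 9027 bases.

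Among the ligands CLCF1 was the highest, with 33.96 ± 1.67 TPM in Control and 35.3 ± 2.94 TPM in ADP-CM (SD, n = 3 each). LIF came second with 18.5 ± 1.69 and 23.4 ± 1.87 TPM, followed by CTF1 with 13.2 ± 0.739 and 10.8 ± 0.644 TPM. IL11 lay at 1.71 ± 0.471 and 1.60 ± 0.198 TPM, and IL6 at 0.145 ± 0.0328 and 0.533 ± 0.331 TPM (SD, n = 3 each). The order of the ligands had no overlap between neighbours within either group. Across roles, LIF and IL6R overlapped in Control but not in ADP-CM, and so did IL11 and LIFR.

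**Figure D1:**
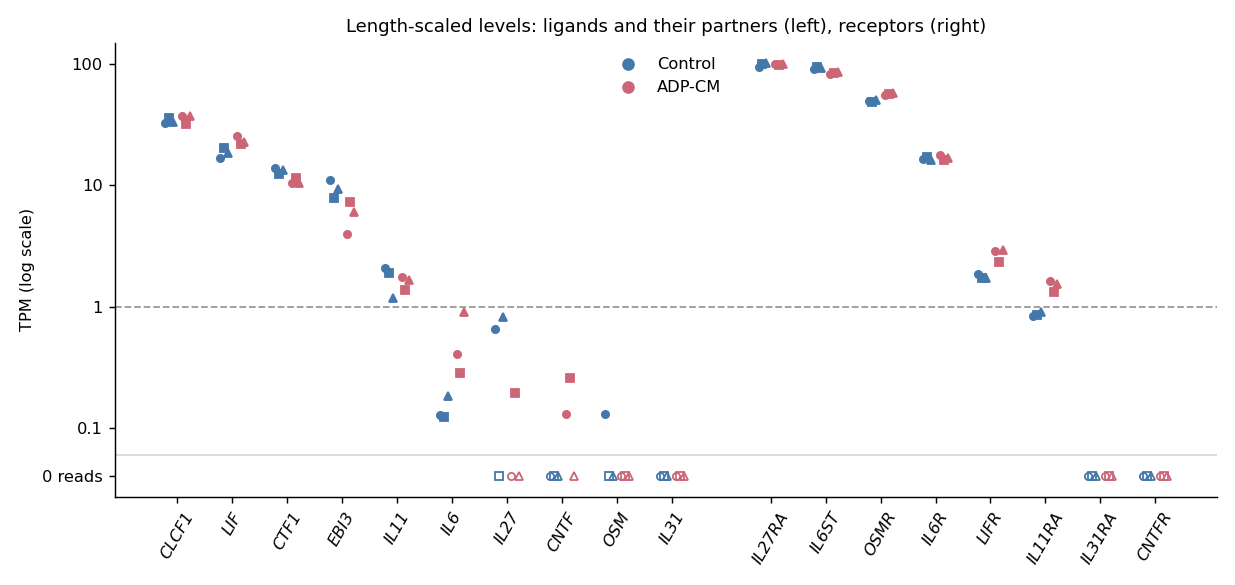
Level of each family gene in TPM (vertical log axis) in the 3 Control (blue) and 3 ADP-CM (red) libraries, with circles, squares and triangles for replicates 1, 2 and 3. Ligands and ligand partners stand on the left and receptors on the right. Open symbols on the lowest line are libraries with 0 reads, and the dashed line marks 1 TPM. IL27RA, IL6ST and OSMR are the highest receptors, LIFR lies between 1.71 and 2.93 TPM, and CNTFR and IL31RA have 0 reads throughout.

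A gene was taken as expressed at 1 TPM or more in every library, a limit met by 8 of the 10 members. IL6 was under it in every library and IL11RA only in the Control libraries. Of 10 ligand and receptor combinations of the family, 6 had every receptor chain above the limit, and 2 of these also had the ligand, namely LIF and CTF1, both acting through LIFR with gp130. In both LIFR was the scarcer chain, with 1.76 ± 0.0721 TPM in Control and 2.71 ± 0.321 TPM in ADP-CM (SD, n = 3 each). IL6ST exceeded it 52.8 ± 2.99 times in Control and 31.3 ± 3.78 times in ADP-CM, and 61.2 ± 3.46 and 36.3 ± 4.38 times with the longest transcript. With the median transcript length the excess was only 5.59 ± 0.316 and 3.32 ± 0.40 times. Among the 4 partner chains of the 10 members OSMR was the most abundant, but its ligand OSM had 1 read in Control replicate 1 and 0 reads in the other 5 libraries. IL6R and gp130 were both present while IL6 lay under the limit.
The count of 6 rests on where the limit is put, because LIFR is close to it. With a limit of 5 TPM, 3 combinations had every chain, namely OSM with OSMR, IL6 with IL6R and IL27 with IL27RA.

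Of the other 4 combinations, that of IL11 lacked a chain above the limit because IL11RA was under it in Control, and CNTFR or IL31RA, which are not among the 10, was missing in the others. CNTFR, the binding chain that CLCF1 needs, had 0 reads in all 6 libraries, where 3 reads would have been 0.351 to 0.395 TPM. CLCF1 was thus expressed without a detectable transcript of that chain. IL31 and IL31RA also had 0 reads in every library. IL27RA, a gp130 partner for IL27, was at 98.5 ± 4.22 TPM in Control and 99.6 ± 1.21 TPM in ADP-CM (SD, n = 3 each), while IL27 had at most 4 reads. Such limits cover counting error only, since the reads carry no molecular identifiers.

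The second question was whether 24 h of ADP-CM changed these genes. With edgeR's quasi-likelihood test and Benjamini-Hochberg adjustment over all tested genes, 4 of the 9 tested members passed an adjusted p-value of 0.01. LIF, LIFR and OSMR rose and IL6ST fell. Over all tested genes 26.5% passed the same limit, 13.5% higher and 13.0% lower. The median log2 fold change of the 9 members was 0.05, against -0.00 over all tested genes. Only LIFR passed that limit with a fold change over 1.5 as well, as 2.27% of all tested genes did, and its fold change was under 1.5 without ADP-CM replicate 1 (log2 fold change 0.57) and without ADP-CM replicate 3 (0.55). At an adjusted p-value of 0.05, 5 members passed, with IL11RA as the addition, and 36.7% of all tested genes. The libraries of the groups did not overlap for 6 of the 9 members, and for 45.5% of all tested genes. In RNA of whole cultures, a change in the share of cells that express a gene and a change in RNA per cell cannot be told apart. All gene positions are those of GENCODE on GRCh37.

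**Figure D2:**
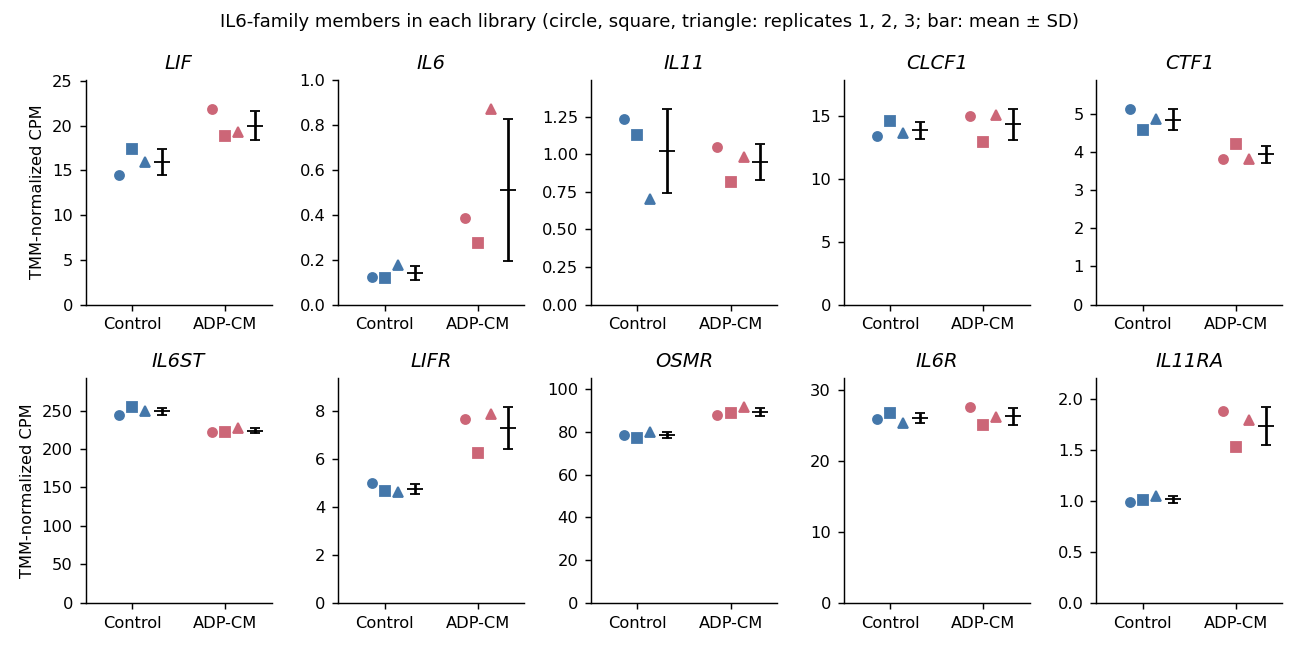
TMM-normalized CPM of the 10 members (vertical axes from 0, each panel with its own scale) in the Control (blue) and ADP-CM (red) libraries, with circles, squares and triangles for replicates 1, 2 and 3 and black bars for mean ± SD. LIF, IL6, LIFR, OSMR and IL11RA are higher in all 3 ADP-CM libraries, and IL6ST and CTF1 lower in all 3.

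Of the tested ligands LIF alone passed. LIF (chromosome 22, 30636442 to 30642748, minus strand, GRCh37) had 235, 293 and 273 reads in Control replicates 1, 2 and 3 and 396, 346 and 356 reads in ADP-CM replicates 1, 2 and 3. Every ADP-CM library lay above every Control library after normalization, with 14.5 to 17.4 CPM in Control and 18.9 to 21.9 CPM in ADP-CM. The fitted fold change was 1.26 (95% interval 1.13 to 1.39), and edgeR gave an adjusted p-value of 0.000271. The call was lost under a pair of alternatives, with an adjusted p-value of 0.0116 with DESeq2 and of 0.0111 in edgeR without ADP-CM replicate 1, the library with the most LIF reads. The ratio of LIF to CTF1, the other ligand of LIFR with gp130, was 1.41 ± 0.207 in Control and 2.17 ± 0.265 in ADP-CM (TPM over TPM; SD, n = 3 each), and with the median transcript length 2.42 ± 0.356 and 3.73 ± 0.455.

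IL6 (chromosome 7, 22765503 to 22771621, plus strand, GRCh37), the founding cytokine of the family, had 2, 2 and 3 reads in Control and 7, 5 and 16 reads in ADP-CM replicates 1, 2 and 3. The groups did not overlap, but ADP-CM replicate 3 alone held more IL6 reads than the other 2 ADP-CM libraries together. Summed over the groups, 28 reads in ADP-CM against 7 in Control gave a ratio of 3.66 (exact 95% Poisson interval 1.56 to 9.93, counting error only), and 2.36 (0.857 to 7.08) without ADP-CM replicate 3. An exact two-sided permutation test of the CPM values gave p = 0.1, the smallest that 3 libraries against 3 allow. Fitted without a low-count filter, IL6 did not pass in edgeR (adjusted p-value 0.0162).

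The other 3 ligands did not pass. CLCF1 (chromosome 11, 67131639 to 67141648) had 217, 247 and 233 reads in Control and 272, 237 and 277 reads in ADP-CM, and its groups overlapped. Its fold change of 1.03 had a 95% interval of 0.922 to 1.16. CTF1 (chromosome 16, 30907935 to 30914868) had 83, 77 and 83 reads in Control and 69, 77 and 70 reads in ADP-CM. All 3 ADP-CM libraries were lower after normalization, at 3.81 to 4.20 CPM against 4.56 to 5.12 CPM, but the fold change of 0.814 (95% interval 0.666 to 0.995) did not pass (adjusted p-value 0.102, edgeR). IL11 (chromosome 19, 55875750 to 55881831) had 20, 19 and 12 reads in Control and 19, 15 and 18 reads in ADP-CM. Its fold change of 0.934 had a wide 95% interval of 0.614 to 1.42 at this depth, so neither a fall nor a rise within it is excluded.

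Among the receptors, LIFR had the largest change that passed. LIFR (chromosome 5, 38474770 to 38608456, minus strand, GRCh37) had 81, 79 and 79 reads in Control replicates 1, 2 and 3 and 139, 115 and 145 reads in ADP-CM replicates 1, 2 and 3. Its Control libraries lay within 4.62 to 4.99 CPM and its ADP-CM libraries between 6.27 and 7.88 CPM, without overlap. The fold change was 1.53 (95% interval 1.28 to 1.82), and edgeR gave an adjusted p-value of 8.28e-05. With about this many reads the counting error alone is 11.2% in Control and 8.67% in ADP-CM, against observed coefficients of variation of 4.21% and 12.1%. Antisense genes overlap 5.17% of the exonic bases of LIFR, 9.91% of those of IL6 (by IL6-AS1) and 6.61% of those of IL6ST. RICTOR overlaps 3.19% of OSMR in antisense, and LIF-AS1 and LIF-AS2 overlap 2.22% and 2.14% of LIF. The strand setting of the counting is not given in the sources used here, so reads of such partners may not be told apart.

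OSMR (chromosome 5, 38845960 to 38945698, plus strand, GRCh37), the specific receptor chain for oncostatin M, had 1275, 1305 and 1369 reads in Control and 1594, 1626 and 1682 reads in ADP-CM. The change was smaller than that of LIFR but tighter, from 77.3 to 80.1 CPM in Control to 88.0 to 91.4 CPM in ADP-CM, without overlap. The fold change was 1.14 (95% interval 1.08 to 1.19), and edgeR gave an adjusted p-value of 2.12e-05. OSMR and LIFR are neighbours on chromosome 5, with 237.5 kb between the annotated genes. OSMR exceeded LIFR 28.0 ± 1.35 times in Control and 21.0 ± 2.55 times in ADP-CM (TPM over TPM, SD, n = 3 each). With the longest transcript the excess was 31.6 ± 1.52 and 23.7 ± 2.88 times, and with the median transcript length 16.3 ± 0.785 and 12.3 ± 1.49 times.

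IL6ST (chromosome 5, 55230923 to 55290850, minus strand, GRCh37) went the other way. It had 3966, 4290 and 4254 reads in Control and 4030, 4072 and 4182 reads in ADP-CM, and after normalization every ADP-CM library (222.0 to 227.4 CPM) lay below every Control library (244.5 to 254.1 CPM). The fold change was 0.899 (95% interval 0.869 to 0.931), and edgeR gave an adjusted p-value of 8.53e-07. This was the smallest change of the 4 that passed and the one with the narrowest interval.

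IL6R (chromosome 1, 154377669 to 154441926), which binds IL6, had 420, 451 and 433 reads in Control and 498, 459 and 482 reads in ADP-CM. Its groups overlapped, and its fold change of 1.01 had a 95% interval of 0.930 to 1.10. IL11RA (chromosome 9, 34652159 to 34661899), which binds IL11, had 16, 17 and 18 reads in Control and 34, 28 and 33 reads in ADP-CM, without overlap. Its fold change of 1.70 was larger than that of LIFR, but its 95% interval of 1.19 to 2.43 was wide and it did not pass (adjusted p-value 0.0143, edgeR). Under a filter of 10 or more counts in every library that p-value was 0.00955, and with DESeq2 it was 0.11. In the annotation 32.5% of the exonic bases of IL11RA also belong to a readthrough gene on the same strand, so its count is uncertain.

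**Figure D3:**
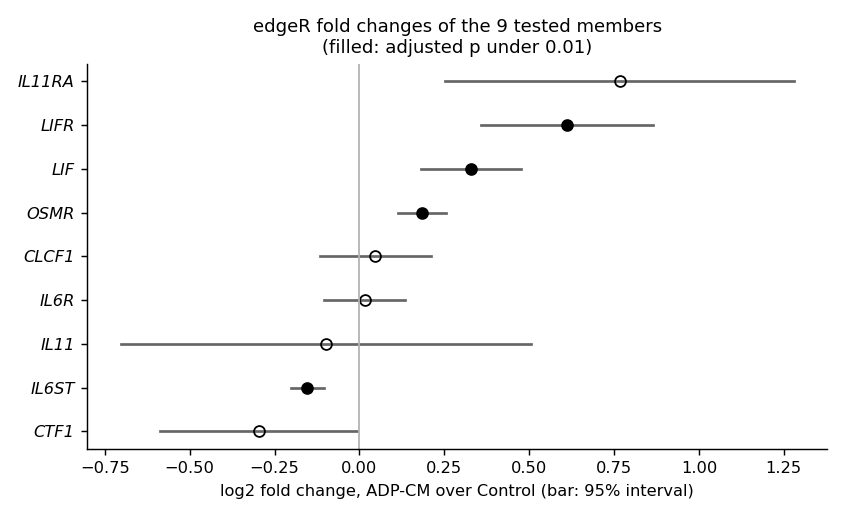
Log2 fold change of ADP-CM over Control for the 9 tested members (points) with 95% intervals (horizontal bars) from edgeR's quasi-likelihood fit. Filled points passed an adjusted p-value of 0.01. LIFR, LIF and OSMR are filled to the right of 0 and IL6ST to the left, and IL11 and IL11RA have the widest intervals.

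Promoter sequence was available in RefSeq (GRCh38.p14) for 7 of the 10 members, while LIF, CLCF1 and CTF1 had no entry. The 250 bases before each listed start were searched on both strands for the STAT motif TTCNNNGAA, the AP-1 motif TGANTCA and the NF-kB motif. A STAT motif stood in 2 of the 3 listed LIFR windows and in no window of the other 6 members, and 6.57% of all 35116 windows held one. LIFR is shown because it had the largest change that passed, IL6 for its NF-kB motif (held by 9.96% of all windows), and IL11, which did not pass, for its AP-1 motif (6.57% of all windows). The capitals mark the motif, and each sequence starts 250 bases before the listed start and reads 5′ to 3′.
LIFR window 1, chr5:38595406-38595655, minus strand: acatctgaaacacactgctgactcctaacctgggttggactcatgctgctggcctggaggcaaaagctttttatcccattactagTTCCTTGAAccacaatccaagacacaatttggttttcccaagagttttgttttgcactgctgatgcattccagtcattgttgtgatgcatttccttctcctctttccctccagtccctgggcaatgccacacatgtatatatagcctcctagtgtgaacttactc
LIFR window 2, chr5:38557578-38557717, minus strand: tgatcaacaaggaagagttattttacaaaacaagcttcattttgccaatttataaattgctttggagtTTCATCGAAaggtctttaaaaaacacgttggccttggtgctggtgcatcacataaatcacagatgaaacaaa
IL6, chr7:22726950-22727139, plus strand: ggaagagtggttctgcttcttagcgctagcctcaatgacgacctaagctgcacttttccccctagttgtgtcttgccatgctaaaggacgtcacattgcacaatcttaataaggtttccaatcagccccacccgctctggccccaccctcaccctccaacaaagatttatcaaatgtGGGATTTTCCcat
IL11, chr19:55370464-55370713, minus strand: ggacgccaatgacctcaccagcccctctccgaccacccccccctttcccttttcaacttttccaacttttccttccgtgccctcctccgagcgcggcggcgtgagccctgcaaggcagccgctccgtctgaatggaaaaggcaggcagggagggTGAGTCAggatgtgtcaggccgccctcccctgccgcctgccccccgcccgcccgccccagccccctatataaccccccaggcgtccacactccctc
The matches TTCCTTGAA and TTCATCGAA of LIFR lay at -165 to -157 and -182 to -174 from their starts, where -1 is the base just before the start. GGGATTTTCC of IL6 lay at -73 to -64 and TGAGTCA of IL11 at -96 to -90. The NF-kB motif also stood in the window of IL6ST and in 1 window of IL11RA. OSMR, which also rose, and IL6R held none of the 3 motifs. A match is a description of letters and not a binding site, and the counts do not tell which LIFR start was used.

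Since LIFR, IL6R, IL11RA and, for oncostatin M, OSMR act with gp130, each partner was also set against IL6ST within the same library, which removes any effect of library scaling. All 4 ratios were higher in all 3 ADP-CM libraries than in any Control library. They share IL6ST as the denominator, which was itself lower in every ADP-CM library after normalization, so they are not 4 separate results. The share of all genes whose ratio to IL6ST separates in this way was not computed. On CPM alone 22.7% of all tested genes were higher in ADP-CM without overlap. For LIFR the log2 ratio of reads was -5.60, -5.75 and -5.74 in the Control libraries against -4.85, -5.14 and -4.85 in ADP-CM, a 1.69-fold rise of the ratio. For OSMR it was -1.64, -1.72 and -1.64 against -1.34, -1.32 and -1.31, or 1.26-fold. The ratio of IL6R was 1.12-fold and that of IL11RA 1.87-fold higher in ADP-CM, although neither gene passed on its own. The fall of IL6ST, the denominator, to 0.899-fold is part of each rise. By itself IL6R had a fold change of 1.01 and IL11RA of 1.70, so the higher ratio of IL6R is mostly that fall. Each exact two-sided permutation test gave p = 0.1, the smallest possible with 3 libraries against 3, and 0.1 after adjustment over the 4 ratios, so none could reach 0.05.
Summed over the 4 partners, the level was 68.6 ± 0.386 TPM in Control and 77.5 ± 1.51 TPM in ADP-CM (SD, n = 3 each). IL6ST over this sum was 1.35 ± 0.0314 in Control and 1.08 ± 0.0139 in ADP-CM, and 1.41 ± 0.0333 and 1.13 ± 0.0144 with the longest transcript. With the median transcript length it was 0.242 ± 0.00570 and 0.194 ± 0.00276, so of these lengths only the median put the partners above IL6ST. OSMR made up 71.8% ± 0.815 of the sum in Control and 72.7% ± 1.23 in ADP-CM, and LIFR 2.57% ± 0.112 and 3.49% ± 0.353 (SD, n = 3 each). With the median transcript length LIFR made up 4.34% ± 0.185 and 5.89% ± 0.587.

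**Figure D4:**
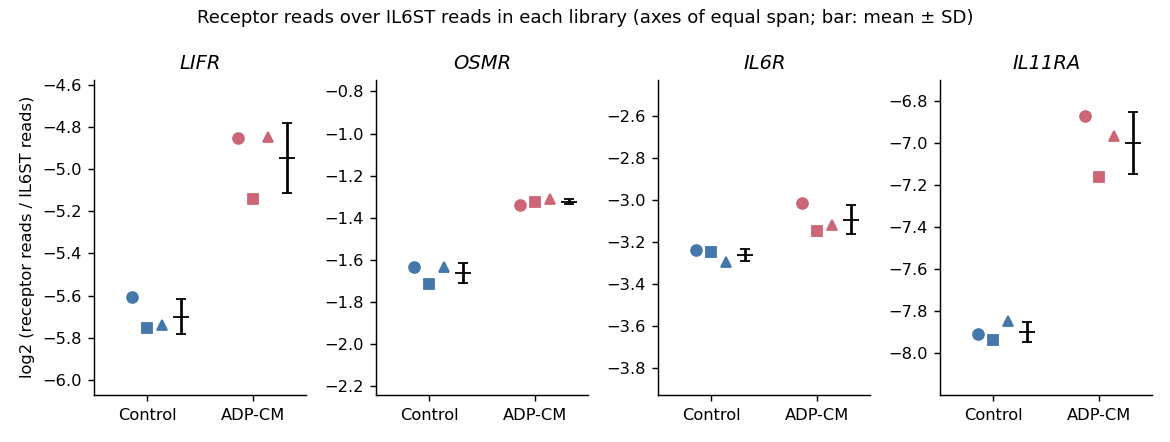
Log2 ratio of the reads of LIFR, OSMR, IL6R and IL11RA to the reads of IL6ST in each library (vertical axes of equal span, not starting at 0), for Control (blue) and ADP-CM (red), with circles, squares and triangles for replicates 1, 2 and 3 and black bars for mean ± SD. All 3 ADP-CM libraries lie above the Control libraries in every panel, with differences of 0.75 for LIFR, 0.34 for OSMR, 0.17 for IL6R and 0.90 for IL11RA.

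The 3 tested genes with the pattern most like LIFR over the 6 libraries, by Pearson correlation of log2 CPM, were FKBP4, TNIK and DENND4B (r = 0.998, 0.998 and 0.997), and those most like LIF were EPN2, OTUD3 and C6orf57 (r = 0.997, 0.993 and 0.992), each from 12136 genes compared. The 6 points fall into the same 2 groups of libraries, so these values are a description only.

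The rest of the pathway was read from lists of genes. The limit was an adjusted p-value of 0.01 in edgeR, which 26.5% of all tested genes passed. Of 8 other ligands and receptors of the family 2 were tested, and EBI3, the partner of IL27, was at 2.63 ± 0.445 CPM in Control and fell to 1.60 ± 0.462 CPM in ADP-CM (SD, n = 3 each). Its log2 fold change was -0.71 (adjusted p-value 0.00715, edgeR). It no longer passed with DESeq2, or when Control replicate 1 or 3 or ADP-CM replicate 1 was left out, which left 0 of the list lower. Of the 5 related class I receptors only LEPR was tested, and it did not pass.
Of 11 kinases, STATs and adaptors 10 were tested, of which 2 passed, both higher, a smaller share than the 26.5% of all tested genes. JAK1, the main kinase on gp130, rose from 14.8 ± 0.810 to 18.9 ± 1.53 CPM, and SHC1, an adaptor to the MAPK pathway, from 157.9 ± 7.15 to 197.1 ± 0.363 CPM (SD, n = 3 each). STAT3 had a log2 fold change of -0.02 with a 95% interval that included 0, from 328.0 ± 9.84 to 323.7 ± 8.15 CPM (SD, n = 3 each). The median log2 fold change of the list was -0.02.

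Of the 9 inhibitors, all tested, 2 passed, a smaller share than the 26.5% of all tested genes. SOCS3 rose and SOCS1 fell. SOCS3, which binds gp130 and is induced by STAT3, had 494, 531 and 551 reads in Control and 842, 887 and 859 reads in ADP-CM, a log2 fold change of 0.59. SOCS1 had 21, 24 and 23 reads in Control and 11, 13 and 9 reads in ADP-CM, a log2 fold change of -1.16. Neither gene's groups overlapped. SOCS1 no longer passed with DESeq2, without Control replicate 2 or without ADP-CM replicate 3, and it was not tested under a filter of 10 or more counts in every library, so that 0 of the list were then lower. The median of the list was -0.06.
Of the 6 genes of receptor shedding and sorting, all tested, 1 was higher and 2 lower, with a median of -0.08. Over all tested genes 13.5% were higher and 13.0% lower. RHBDF2, which helps to bring the sheddase ADAM17 to the cell surface, rose by a log2 fold change of 0.27, while SORL1, a sorting receptor, fell by 0.38 on the log2 scale and ERAP1 by 0.24. ADAM17 itself did not pass.

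Of the 25 target genes of gp130 and STAT3, 20 were tested, 10 of them higher and 5 lower, with a median log2 fold change of 0.17. With DESeq2 6 were higher and 4 lower. MYC, SOCS3, NFKBIZ and VEGFA had the smallest p-values, with log2 fold changes of 0.32, 0.59, 0.45 and 0.39. The 5 lower genes were IRF1, JUNB, KLF4, BCL2L1 and CCND1, with log2 fold changes of -0.33, -0.23, -0.16, -0.14 and -0.07. These genes also answer to other pathways, and the liver acute-phase genes LBP, CRP and HP on the list had 0 reads in every library. SERPINA3 had 24, 16 and 32 reads in Control and 40, 33 and 106 reads in ADP-CM replicates 1, 2 and 3. Its log2 fold change was 1.18 (adjusted p-value 0.000277, edgeR). SAA1 had 49 to 56 reads in Control and 55 to 60 reads in ADP-CM and did not pass. FGB had 0 reads in each Control library and 1, 0 and 14 reads in ADP-CM, and FGG had 1 read in ADP-CM replicate 1 only. Of 13 genes of the RT-qPCR panel for LIF and LIFR signalling, all tested, 2 were higher and 4 lower, with a median of -0.02. MYC was 1 of the higher genes, and ID1, ID2 and ID3, inhibitors of differentiation that are also targets of BMP signalling, fell by 0.71, 1.39 and 0.56 on the log2 scale. JUNB was the other lower gene. By RT-qPCR the paper reports higher expression of LIFR target genes under ADP-CM, but its text does not name them. The RT-qPCR values were therefore not compared with these counts gene by gene. Whether these libraries guided the choice of the panel is not given in the sources used here, so it is no independent evidence of a direction. Except where DESeq2 or another setting is named, counts use the edgeR test at an adjusted p-value of 0.01, which 26.5% of all tested genes passed. The share of all genes that passed with DESeq2 was not computed. Lists share some genes.

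**Figure D5:**
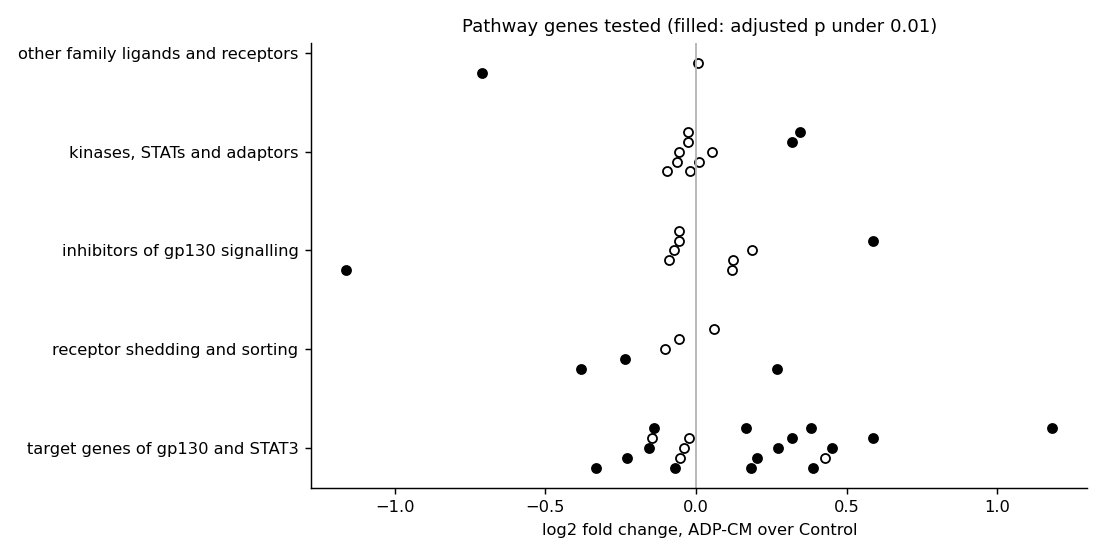
Log2 fold change of ADP-CM over Control (horizontal axis) for the tested genes of 5 pathway lists, 1 point per gene, filled where the adjusted p-value was under 0.01. Points are spread vertically within a list only to be seen. In the targets of gp130 and STAT3 10 filled points lie right of 0 and 5 left of it.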

How the data were processed

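Poly(A) RNA of RL95-2 cells was sequenced as single reads from stranded libraries, 3 for Control and 3 for ADP-CM. Per the paper's methods and the labels, TopHat2 was used by the authors for alignment to hg19, and HTSeq for counting over NCBI RefSeq genes. They deposited raw read counts per gene, 1 table per library, without normalization. Program versions and the strand setting are not given in the sources used here. HTSeq leaves out reads without a unique alignment (20.5% to 20.8% of all counted reads) and ambiguous reads (0.709% to 0.721%). Reads on no gene made up 10.2% to 10.3% in the Control libraries and 11.5% to 11.6% in the ADP-CM libraries, without overlap. These summary lines entered neither library sizes nor tests. The part of this group difference, and of that in reads on genes, in the member results was not tested. Replicate libraries differed by more than sampling noise, with a chi-square per degree of freedom of 1.22 to 2.01, where sampling noise alone gives about 1. The spread beyond counting was still small, with a common biological coefficient of variation of 1.67% in edgeR.

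Counts were analysed in R 4.3.3 with edgeR 4.0.16 (TMM, filterByExpr, quasi-likelihood test, Benjamini-Hochberg over 12663 genes). Genes were called at an adjusted p-value under 0.01. TPM used the union of exons of GENCODE release 44 on GRCh37, with 21321 symbols matched (2184 by a synonym), which held 99.1% or more of the gene reads of each library. Exact permutation tests were two-sided, in scipy 1.17.1. The ratios with other transcript lengths were chosen after seeing the data. Alternatives were DESeq2 1.42.0, other scalings and filters, the replicate number as a block, other lengths and limits, and each library left out. edgeR and DESeq2 were tested on simulated data. The members and lists were chosen with earlier results of these data known. Named were all members, up to 4 genes per list of smallest p-value that passed, STAT3, SOCS3, JAK1, CNTFR and OSM, and the 3 genes most like LIF and LIFR. IL27, IL27RA, IL31, IL31RA, LEPR, ADAM17, SERPINA3, SAA1, FGB, FGG, the listed genes with 0 reads and the markers with reads or CPM were added after their values were seen. A pair of genes is not reported here and was left out of the lists.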

Additional observations from a re-analysis of the deposited data

How the results depend on the processing

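LIFR, OSMR and IL6ST kept their direction and stayed past an adjusted p-value of 0.01 under all 12 alternatives tried, with log2 fold changes of 0.55 to 0.71, 0.17 to 0.20 and -0.17 to -0.14. LIF was lost with DESeq2 and without ADP-CM replicate 1 and kept under the other 10, with log2 fold changes of 0.26 to 0.39. IL11RA passed under 1 of 12, the filter of at least 10 counts. With libraries left out 1 at a time, IL11 ran from -0.31 to 0.0551 and IL6R from -0.0201 to 0.0469, and both changed sign while far from the threshold. The number of members that passed was 3 to 5 with other scalings, filters, tools and libraries, and 1 with a fold change over 1.5 also required.
Levels per length depend on the transcript models. With the median transcript length in place of the exon union, LIFR in Control was at 6.71 TPM. OSMR was then at 109.5, IL6R at 37.7 and IL6ST at 37.5 TPM, so IL6ST was no longer the highest. With the longest transcript IL6ST stayed the highest, at 86.3 TPM in Control against 44.5 TPM for OSMR. RPKM on TMM-scaled library sizes used the same exon union, and LIFR in Control was at 0.392. The receptor combinations with every chain expressed numbered 3 with a limit of 5 TPM, against 6, and 6 or 7 with other lengths or a limit of 0.5 TPM. With RPKM they also numbered 3, but RPKM lies lower for the same reads, at 20.65 against 92.79 TPM for IL6ST in Control. A limit of 1 is therefore stricter on that scale and no separate check of the limit of 5 TPM. No ratio to IL6ST changed direction.
The replicate numbers are shared by the groups, but deviations of same-numbered libraries from their group means correlated by only 0.0663, 0.037 and 0.0887 over 12137 genes, so the samples were not treated as paired, although each library correlated best with its own number. With the replicate block, 4 members passed, as without it.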
